A study of Mus musculus with 36 samples.

Results

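The 8 genes described here were taken by name from the deposited count table of mouse gastrocnemius RNA. They were Angptl4, Pdk4, Plin2, Plin3, Plin4, Plin5, Ucp2 and Ucp3, out of the 46893 features listed, and all 8 passed the minimum count in every comparison. They were selected on the log2 fold changes of HFD-50% against the other groups and, for Angptl4, on its levels over the running groups, that is, with earlier results of the same mice known. The comparisons that involve HFD-50% are therefore given as descriptions, without a test. Other comparisons with HFD-C or HFD-U share mice with those that led to the choice. It is not certain which of these other comparisons were also in view at the choice, so their tests may not be independent of it.

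The 36 mice were male, wild type and of strain C57BL/6, 3 to 4 weeks old at the start, and were kept on their diet, with or without a wheel, for 12 weeks. NFD-C mice were sedentary and ate the AIN93G diet, and HFD-C mice were sedentary and ate the high-fat diet. The other 4 groups ate the same high-fat diet and ran on a wheel in the cage, with daily means of 2.1 km for HFD-25%, 4.2 km for HFD-50% and 6.3 km for HFD-75%. HFD-U mice had the wheel without restriction and ran 8.3 km. Each group held 6 mice and 1 library per mouse. In the restricted groups the brake was released at lights off and set again once the daily distance was reached. No running mice on the AIN93G diet were included, so that diet and running cannot be crossed.

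Peroxisome proliferator-activated receptors (PPARs) are nuclear receptors that bind fatty acids and, paired with RXR, switch on genes for the uptake, storage and oxidation of fat. The genes described are grouped here as PPAR targets, and their control by PPARs was not tested in these data. Angptl4 is a secreted inhibitor of lipoprotein lipase, the enzyme that frees fatty acids from circulating triglycerides. Pdk4 is a mitochondrial kinase that turns off pyruvate dehydrogenase and so spares glucose. The perilipins (Plin genes) coat lipid droplets and control the access of lipases to the stored fat. Ucp2 and Ucp3 are mitochondrial inner membrane carriers of the uncoupling protein family.

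Library totals ranged from 13060090 to 27981702 counted reads (median 16710687.5). The libraries came in separate sets when ranked by how much of the total lay on transcripts tied to ribosomal RNA (rRNA). This share was 2.01 to 3.803% in the 6 NFD-C libraries and in HFD-C replicates 1 to 4. It was 0.404 to 1.02% in HFD-C replicates 5 and 6 and in the 24 running mice. Running and this library set are thus largely overlaid in the comparisons with HFD-C, and values with an added term for the library set are also given. The 12 markers of muscle fibres were all detected and summed to 99392 to 178354 CPM (counts scaled to the library total). The 10 markers of adipocytes summed to 117 to 462 CPM, the 10 of macrophages to 26.8 to 77.9 CPM, the 8 of endothelium to 152 to 545 CPM and the 6 of red blood cells to 119 to 412 CPM. Plin1, the perilipin of adipocytes, had 0 to 10.2 CPM. In whole muscle, fewer cells of a type and less RNA per cell cannot be told apart.

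Per transcript length, Pdk4 was the most abundant of the 8 genes, with a level of 437 ± 190 FPKM (SD over the 36 mice; counts scaled to library total and gene length). Ucp3 followed with 167 ± 47.2 FPKM and Plin4 with 92.0 ± 24.8 FPKM. Plin5 had 16.1 ± 8.73, Plin3 11.2 ± 4.24, Ucp2 9.56 ± 2.88, Plin2 8.68 ± 1.72 and Angptl4 6.23 ± 4.73 FPKM. Within each family, 1 member made up most of the FPKM. Plin4 held 71.4 ± 7.98% of the summed FPKM of Plin1 to Plin5, Pdk4 71.2 ± 7.83% of that of Pdk1 to Pdk4, and Ucp3 94.2 ± 2.30% of that of Ucp2 and Ucp3. The Pdk4 share was 64.8 ± 9.79% in HFD-C, 76.3 ± 9.07% in HFD-50%, 75.6 ± 4.19% in HFD-75%, with 67.1 ± 3.76% in HFD-U (SD, n = 6 each). By mouse, HFD-75% (71.3 to 82.3%) lay narrowly above HFD-U (62.2 to 70.5%), and the other groups overlapped. The lowest count of any member in a library was 49, for Angptl4, and libraries of the same group differed by far more than counting noise over all genes, with a chi-square of 14.7 to 181 per degree of freedom.

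The genes lie in neighbourhoods on the GRCm39 build of the count table. Plin4 (chr17:56407587-56416947) ends 1653 bases before Plin5 (chr17:56418601-56424606), and Plin3 (chr17:56585962-56597511) follows 161355 bases after Plin5, all on the minus strand. Ucp3 (chr7:100122198-100135639) and Ucp2 (chr7:100142544-100148836) are 6904 bases apart on the plus strand. Angptl4 (chr17:33993874-34000549), Pdk4 (chr6:5483351-5496278) and Plin2 (chr4:86545147-86588518) lie elsewhere on the minus strand. Each of Angptl4, Plin2 and Plin4 overlaps 1 other listed feature, and as strand use in the counting is not given in the sources used here, reads in the shared bases cannot be assigned.

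Promoter sequence is shown because the genes are grouped as PPAR targets, and PPAR with RXR binds 2 copies of the half-site AGGTCA in the same direction with 1 base between them. The RefSeq promoter table (GRCm38.p6) matched 7 of the 8 genes, all but Angptl4. The 250 bases before the start site are shown for Ucp3 (chr7:100472741-100472990, plus strand), Pdk4 (chr6:5496279-5496528, minus strand), Plin4 (chr17:56109783-56110032, minus strand) and, as a gene with another pattern, Plin2 (chr4:86670060-86670309, minus strand). They are written 5′ to 3′ along the gene, and capitals mark the 13 bases closest to the repeat on either strand.
Ucp3: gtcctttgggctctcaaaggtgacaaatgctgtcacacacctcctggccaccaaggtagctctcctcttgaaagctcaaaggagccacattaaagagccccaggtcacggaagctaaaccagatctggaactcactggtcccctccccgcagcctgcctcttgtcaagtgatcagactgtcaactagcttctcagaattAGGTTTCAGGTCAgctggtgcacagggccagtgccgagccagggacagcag
Pdk4: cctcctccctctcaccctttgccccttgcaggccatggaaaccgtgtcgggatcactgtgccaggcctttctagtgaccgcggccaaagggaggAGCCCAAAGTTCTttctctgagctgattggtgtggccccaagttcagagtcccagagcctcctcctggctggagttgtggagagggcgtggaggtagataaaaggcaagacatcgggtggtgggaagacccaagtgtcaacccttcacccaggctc
Plin4: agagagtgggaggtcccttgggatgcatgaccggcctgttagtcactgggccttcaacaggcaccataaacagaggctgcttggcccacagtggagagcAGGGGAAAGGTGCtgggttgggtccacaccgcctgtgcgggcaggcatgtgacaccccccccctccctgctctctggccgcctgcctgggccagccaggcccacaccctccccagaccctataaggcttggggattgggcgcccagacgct
Plin2: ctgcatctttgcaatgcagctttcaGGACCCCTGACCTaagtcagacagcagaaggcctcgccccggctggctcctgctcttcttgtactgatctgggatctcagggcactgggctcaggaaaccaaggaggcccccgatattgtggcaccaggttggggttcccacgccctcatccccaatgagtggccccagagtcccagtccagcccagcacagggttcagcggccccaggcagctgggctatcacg

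In Ucp3 these bases start at -51 from the start site, and in Plin2 at -225 on the opposite strand. Both differ from the repeat at 2 of its fixed bases, and 3.18% of the 27025 promoters in the table came as close. Pdk4 (at -156) and Plin4 (at -151) had 4 mismatches, which 74.3% of all promoters reached, as did Ucp2, while Plin3 and Plin5 had 3. The exact repeat was in 0 of the 7 windows of 300 bases, which include 50 bases after the start, and in 0.0444% of all. The half-site AGGTCA was in 3 of 7, namely Ucp3, Plin2 and Plin5, against 16.0% of all promoters, and each of these matches but the one at -149 in Ucp3 lies within the capitals or the closest match. The FOXO motif GTAAACA (3.55% of all), the glucocorticoid half-site AGAACA (19.0%) and TATAAA (14.2%) were in 0 of 7. CACGTG, the E-box read by clock factors, was in 1 of 7, Plin2 (7.24% of all). All motifs were searched on both strands. A match is a description of the letters only, and these windows hold no measurement of binding.

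Angptl4 had the widest range of group means, from 5.19 CPM in HFD-U to 24.2 CPM in HFD-50%, a ratio of 4.67. In NFD-C the lowest, median and highest mouse had 3.74, 9.20 and 13.3 CPM, and in HFD-C 2.96, 5.26 and 13.5 CPM. The values were 4.52, 10.53 and 22.7 CPM in HFD-25%, 12.0, 22.9 and 46.6 CPM in HFD-50%, and 7.86, 14.4 and 25.7 CPM in HFD-75%. All 6 HFD-U mice were at 4.28 to 6.10 CPM, below every HFD-50% and every HFD-75% mouse and within the range of HFD-C. The log2 fold change against HFD-C was 0.71 (SE 0.419) in HFD-25%, 1.79 (SE 0.394) in HFD-50%, 1.09 (SE 0.368) in HFD-75%, with -0.44 (SE 0.327) in HFD-U. Without HFD-25% replicate 2, the value of HFD-25% was 0.40.

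Against HFD-U, Angptl4 had a difference of 1.15 (SE 0.317) in HFD-25%, 2.22 (SE 0.278) in HFD-50% and 1.52 (SE 0.237) in HFD-75% on the log2 scale. In HFD-75% the adjusted p was 0.0644 (quasi-likelihood test of edgeR, adjusted by Benjamini-Hochberg over 11841 genes), which missed the limit of 0.05. It passed with DESeq2 (adjusted p = 3.16e-06) and in edgeR without a minimum count (adjusted p = 0.00173). Leaving out 1 mouse at a time gave adjusted p of 0.0161 to 0.238 in edgeR, with 0.0161 without HFD-75% replicate 3 and 0.0432 without replicate 6. Since Angptl4 was chosen with its values in the running groups known, these p-values are not independent support for it.

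Pdk4 was most abundant in HFD-50%, where the lowest, median and highest mouse had 871, 2046 and 3493 CPM, and in HFD-75%, with 1322, 1849 and 2649 CPM. HFD-C mice had 625, 1085 and 1865 CPM, HFD-25% mice 709, 1432 and 1916 CPM, and NFD-C mice 943, 1424 and 2071 CPM. All HFD-U mice had 900 to 1305 CPM and lay below all HFD-75% mice, if by a narrow margin, whereas 2 HFD-50% mice lay within or below the range of HFD-U. The log2 fold change was 0.77 (SE 0.175) in HFD-75% against HFD-U, with an adjusted p of 0.405 in edgeR, and adjusted p = 0.0104 in DESeq2. Against HFD-C it was 0.76 (SE 0.248, edgeR adjusted p = 0.615) in HFD-75%, 0.86 (SE 0.346) in HFD-50%, 0.25 (SE 0.275) in HFD-25% and -0.01 (SE 0.217) in HFD-U.

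Plin4, a perilipin of muscle and fat that coats nascent droplets, had 382, 508 and 578 CPM (lowest, median and highest) in HFD-C and 723, 801 and 1242 CPM in HFD-50%, with no overlap. In HFD-25% the values were 545, 745 and 782 CPM, and in HFD-75% 544, 792 and 873 CPM, and in each group 5 of 6 mice lay above all HFD-C mice. HFD-U mice had 450, 557 and 628 CPM, below all HFD-50% mice, and NFD-C mice 345, 661 and 831 CPM, which spanned most of the other groups. The log2 fold change against HFD-C was 0.52 (SE 0.146, edgeR adjusted p = 0.398) in HFD-25%, 0.84 (SE 0.172) in HFD-50%, 0.61 (SE 0.155, edgeR adjusted p = 0.397) in HFD-75%, with 0.17 (SE 0.138) in HFD-U. With DESeq2, HFD-75% passed (adjusted p = 0.0376). Against HFD-U the log2 fold change was 0.35 (SE 0.125) in HFD-25% and 0.44 (SE 0.134) in HFD-75%.

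Ucp3, the uncoupling protein of skeletal muscle, had 178, 282 and 393 CPM in HFD-C and 286, 450 and 530 CPM in NFD-C, and 4 of 6 HFD-C mice lay below all NFD-C mice. HFD-25% mice had 284, 442 and 593 CPM, HFD-50% mice 330, 480 and 582 CPM, HFD-75% mice 278, 479 and 628 CPM, and HFD-U mice 272, 349 and 365 CPM. The means of HFD-25%, HFD-50% and HFD-75% were thus close to that of NFD-C, and HFD-U was closer to HFD-C. NFD-C differs from the running groups in diet and, in all libraries, in the rRNA-linked set. No comparison of NFD-C with running mice was tested. The log2 fold change was -0.58 (SE 0.192, edgeR adjusted p = 0.9996) in HFD-C against NFD-C. Against HFD-C it was 0.54 (SE 0.217) in HFD-25%, 0.66 (SE 0.203) in HFD-50%, 0.70 (SE 0.216) in HFD-75%, with 0.16 (SE 0.172) in HFD-U.

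**Figure D1:**
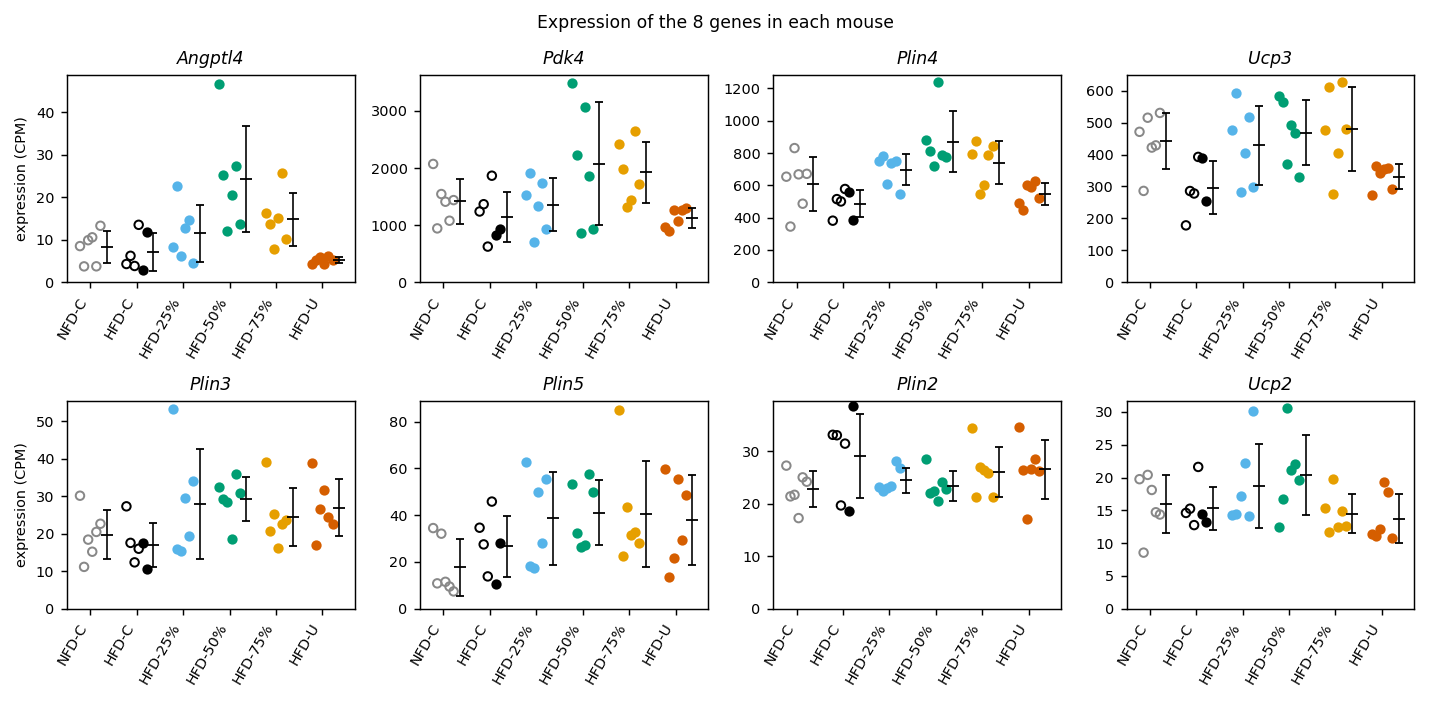
Expression of each of the 8 genes in CPM (vertical axes, from 0) by group, with 1 point per mouse and the mean ± SD (n = 6) to its right. Open points are libraries with an rRNA-linked share above 1.5%; for Angptl4, all HFD-U mice lie between 4.28 and 6.10 CPM and all HFD-75% mice at 7.86 CPM or above.

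In these 4 genes HFD-U was also the group with the least spread. The coefficient of variation in HFD-U was 14.6% for Angptl4 against 41.9 to 62.7% in the other groups, 15.4% for Pdk4 against 27.7 to 52.0%, 12.7% for Plin4 against 13.8 to 27.8%, and 11.7% for Ucp3 against 19.9 to 28.8%. For the other 4 genes HFD-U ranked between the second lowest and the fifth lowest of the 6 groups. These spreads were compared without a test, and the share of all genes with the least spread in HFD-U was not determined. Across mice of the same group the 4 genes also went together, with Pearson's r of 0.459 to 0.737. They are therefore not 4 separate observations.

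Plin3, a perilipin found in most tissues and also free in the cytosol, had another pattern, with all 4 running groups above HFD-C by mean. HFD-C mice had 10.47, 16.7 and 27.3 CPM, and HFD-U mice 16.9, 25.5 and 38.8 CPM. The values were 15.4, 24.4 and 53.3 CPM in HFD-25%, 18.5, 29.97 and 36.02 CPM in HFD-50%, and 16.1, 23.0 and 39.0 CPM in HFD-75%, so that every running group overlapped HFD-C. The log2 fold change against HFD-C was 0.72 (SE 0.298) in HFD-25%, 0.79 (SE 0.207) in HFD-50%, 0.54 (SE 0.226) in HFD-75%, with 0.67 (SE 0.220, edgeR adjusted p = 0.627) in HFD-U. In HFD-25% it was 0.43 without replicate 1, which was the mouse at 53.3 CPM, and in HFD-75% it was 0.36 without replicate 1. Between HFD-75% and HFD-U it was -0.13 (SE 0.209). Plin3 was the only member whose unadjusted p was within 0.05 there (HFD-U against HFD-C).

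Plin5, the perilipin of oxidative tissues that ties droplets to mitochondria, varied most between mice of a group. Its SD within groups was 0.75 on the scale log2(CPM + 1), larger than in 98.4% of the 12053 genes kept, next to 0.64 for Angptl4 (97.1%), 0.54 for Pdk4 (94.3%) and 0.47 for Plin3 (89.8%), and a median of 0.28 over all genes. Mice ranged from 7.35 to 34.5 CPM in NFD-C and from 10.6 to 45.8 CPM in HFD-C, and the highest value was 84.9 CPM in HFD-75%. The log2 fold change against HFD-C was 0.51 to 0.63 in the 4 running groups, with SE of 0.312 to 0.371, and none of the tested ones had an unadjusted p within 0.05. In HFD-75% it was 0.25 without replicate 1, and without HFD-C replicate 4 it was 0.83, with an unadjusted p within 0.05.

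Plin2, the perilipin that coats droplets in most cells, was the only member with a mean below that of HFD-C in all running groups. Its group means ran from 22.8 ± 3.49 CPM in NFD-C to 29.1 ± 8.08 CPM in HFD-C (SD, n = 6), a ratio of 1.28. The log2 fold change against HFD-C lay between -0.13 (SE 0.188) in HFD-U and -0.31 (SE 0.171) in HFD-50%. The 6 HFD-C mice split into a pair at 18.6 and 19.7 CPM and 4 mice at 31.5 to 38.6 CPM, and both sets held libraries of high and of low rRNA-linked share.

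Ucp2, which is expressed in many cell types, had group means from 13.7 ± 3.78 CPM in HFD-U to 20.4 ± 6.09 CPM in HFD-50%. The log2 fold change against HFD-C was 0.29 (SE 0.197) in HFD-25%, 0.42 (SE 0.196) in HFD-50%, -0.07 (SE 0.158) in HFD-75%, with -0.15 (SE 0.180) in HFD-U. The 8 endothelial markers had a median log2 fold change against HFD-C of 0.37 in HFD-25% and 0.39 in HFD-50%. The median was 0.18 in HFD-75%, where Ucp2 was at -0.07, and -0.00095 in HFD-U. By unadjusted p (at most 0.05), 3 of 8 markers were higher in HFD-25%, next to 6.98% of all genes. For HFD-75% the number was 0, as for HFD-U. The part of these markers in the Ucp2 values was not tested. Between neighbouring groups in the order of the means, none of the 40 steps over the 8 genes exceeded the larger SD of the pair, and all neighbours overlapped.

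**Figure D2:**
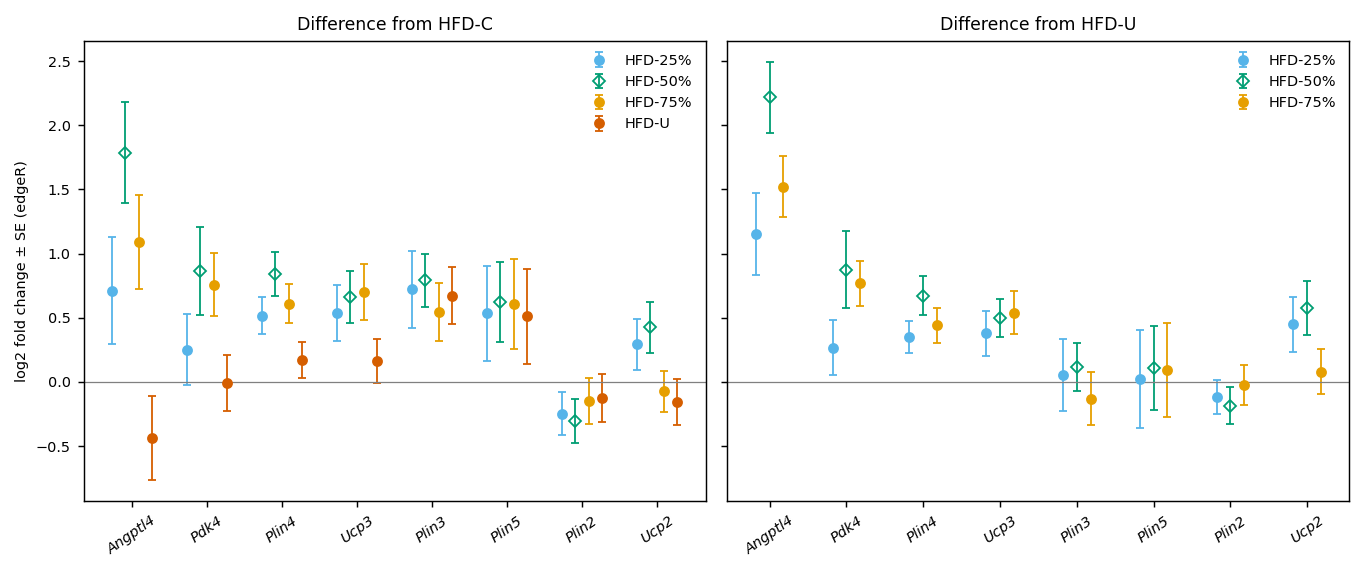
Log2 fold change ± SE (edgeR, vertical axis) of the 8 genes in the running groups against HFD-C (left) and against HFD-U (right). Open diamonds mark HFD-50%, which was used to choose the genes; Angptl4, Pdk4, Plin4 and Ucp3 lie above 0 in HFD-25%, HFD-50% and HFD-75% on both sides, and Plin3 and Plin5 are near 0 against HFD-U.

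Counted over the members, 7 comparisons without HFD-50% were tested, each in a fit of its 12 libraries over all genes whose mean count reached 25. No member passed an adjusted p of at most 0.05 in edgeR in any of them, and the share of all genes that did was 0.0082% in HFD-25% against HFD-C and 0% in the other 6. DESeq2 on the same genes called 1 member in HFD-75% against HFD-C, Plin4, where it called 0.33% of all genes. It called 2 in HFD-75% against HFD-U, Angptl4 and Pdk4, where it called 0.194% of all genes. Angptl4 was chosen on the running groups, and without it 1 of 7 members was called there. The HFD-C and HFD-U mice of these comparisons also served in those of HFD-50%, which led to the choice. DESeq2 called 0 members in the other 5 comparisons. Of all genes it called 0.0163% in HFD-C against NFD-C, and 0.361% and 0.233% in HFD-25% and HFD-U against HFD-C. The share was 0% and 0.00831% in HFD-25% against HFD-U and HFD-75%.

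By unadjusted p, at most 0.05, the limit used in the study for its pathway analysis, 3 of 8 members differed in HFD-25% against HFD-C, next to 6.98% of all genes tested. They were Plin3, Plin4 and Ucp3, all higher in HFD-25%. The number was 5 of 8 in HFD-75% against HFD-C (5.47% of all genes), namely Angptl4, Pdk4, Plin3, Plin4 and Ucp3, all higher in HFD-75%. It was 1 of 8 in HFD-U against HFD-C (5.46%). The median log2 fold change of the 8 members was 0.53, 0.61 and 0.07 in these comparisons, against -0.0091, -0.00089 and -0.0051 over all genes. In HFD-25% the number became 5 when HFD-C replicate 4 was left out and 1 when replicate 6 was. Ucp3 was no longer at this limit in HFD-25% without HFD-25% replicate 2 or 5 or HFD-C replicate 1 or 6. Plin3 was no longer at it in HFD-25% without HFD-25% replicate 1 or 6 or HFD-C replicate 3 or 6, and in HFD-75% without HFD-75% replicate 1 or HFD-C replicate 3, 4 or 6. All 3 comparisons share the 6 HFD-C mice with that of HFD-50%, which served to choose the genes. These numbers are thus not independent of the choice.

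Among running groups, 4 of 8 members differed by unadjusted p (at most 0.05) in HFD-75% against HFD-U (5.57% of all genes) and 3 of 8 in HFD-25% against HFD-U (5.1%), all higher in the restricted group. The former were Angptl4, Pdk4, Plin4 and Ucp3, and the latter Angptl4, Plin4 and Ucp3. The levels of Angptl4 in the running groups led to its choice, so that its calls here are a description. Without it the numbers were 3 of 7 and 2 of 7. Both comparisons also share the 6 HFD-U mice with that of HFD-50%, which served to choose the genes, so these numbers are not independent of the choice. Ucp3 in HFD-25% against HFD-U was no longer at the limit in 8 of 12 cases when 1 mouse was left out, with log2 fold changes of 0.26 to 0.47. The 6 mice of HFD-75% did not overlap those of HFD-U in Angptl4 and, of the other 7 members, in Pdk4, and 0.448% of all genes did not overlap. HFD-25% against HFD-75% had 0 of 8 (3.12% of all genes), with Pdk4 nearest at a log2 fold change of -0.50 (SE 0.242). That number was 2 without HFD-25% replicate 2, without HFD-25% replicate 5 and without HFD-75% replicate 3, and 1 without HFD-25% replicate 1, without HFD-75% replicate 4 and by DESeq2. The HFD-50% mice, whose values served to choose the genes, did not overlap HFD-U in Angptl4 and Plin4 (0.878% of all genes), nor HFD-C in Plin4 (0.792%), which is given as a description.

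In HFD-C against NFD-C, 1 of 8 members differed by unadjusted p (4.12% of all genes), Ucp3, which was lower in HFD-C. The median log2 fold change of the members was -0.23, against -0.00038 over all genes, with Plin2 at 0.34 (SE 0.174) and Plin5 at 0.60 (SE 0.408) the ones above 0. The number was 3 without NFD-C replicate 1, and 2 without NFD-C replicate 2 or HFD-C replicate 3, 4 or 5.

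When a term for the library set was added, HFD-C replicates 5 and 6 carried the comparison with the running mice. In HFD-C, Pdk4 had 831 and 932 CPM in these libraries and 625 to 1865 CPM in the other 4. Its log2 fold change against HFD-C became 0.63 (SE 0.393) in HFD-25%, 1.13 (SE 0.357) in HFD-75%, with 0.36 (SE 0.293) in HFD-U. Those of Plin3 became 0.99 (SE 0.455), 0.81 (SE 0.334) and 0.93 (SE 0.325), and those of Plin5 1.001 (SE 0.558), 1.08 (SE 0.529) and 0.98 (SE 0.555). Angptl4 became 0.66 (SE 0.640), 1.04 (SE 0.568) and -0.49 (SE 0.467), and Plin4 0.56 (SE 0.212), 0.65 (SE 0.229) and 0.21 (SE 0.197). Ucp2 rose to 0.44 (SE 0.290), 0.07 (SE 0.225) and -0.01 (SE 0.256), and Plin2 became -0.22 (SE 0.239), -0.12 (SE 0.259) and -0.10 (SE 0.272). Ucp3 became 0.42 (SE 0.319), 0.58 (SE 0.320) and 0.04 (SE 0.243). Angptl4, Plin4 and Ucp3 thus lay closer to their values without the term, but with wider SE. The number of members past the unadjusted limit was then 2, 3 and 1 in HFD-25%, HFD-75% and HFD-U. Ucp3 was no longer within that limit in HFD-25%, nor were Angptl4 and Ucp3 in HFD-75%.

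**Figure D3:**
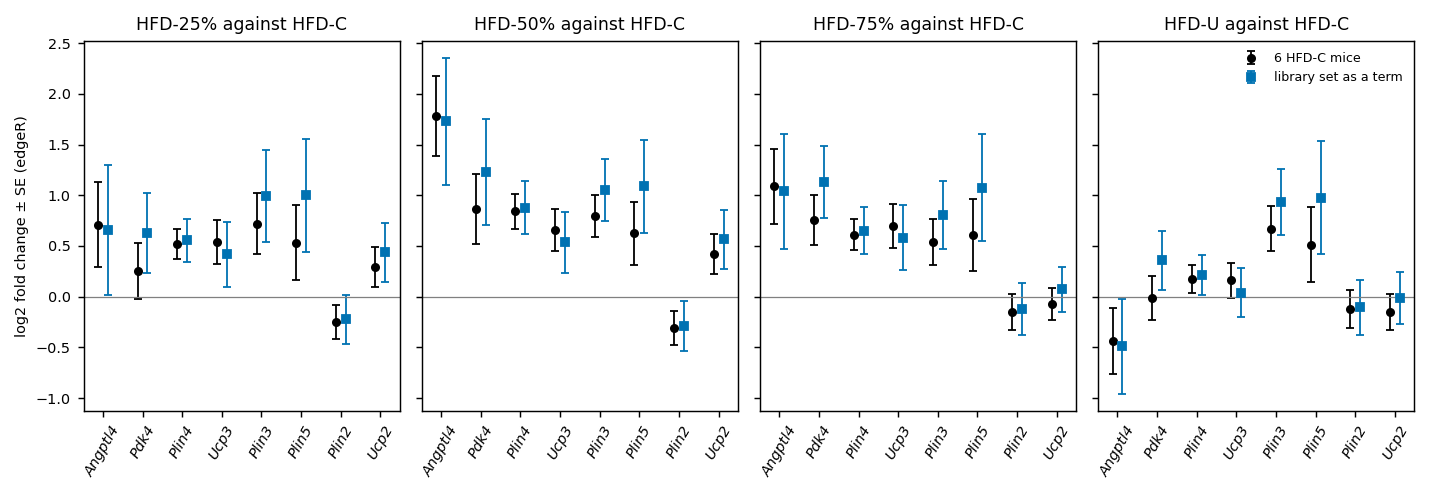
Log2 fold change ± SE (edgeR, vertical axis) of the 8 genes in each running group against HFD-C, without (circles) and with (squares) a term for the rRNA-linked library set. Pdk4, Plin3, Plin5 and, by less, Ucp2 lie higher with the term, as in HFD-75%, where Pdk4 goes from 0.76 to 1.13, and the SE widen.

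Whether the genes go together was asked across mice of the same group, from the deviations of log2(CPM + 1) from the group mean in the 36 mice. Differences between groups do not enter these values, but libraries share depth and base composition. Of 28 pairs, 8 had an adjusted p of at most 0.05 for Pearson's r (permutation test within groups, 100000 permutations, two-sided, Benjamini-Hochberg over the 28 pairs), and all 8 were positive. The median r of the 28 pairs was 0.216, and the lowest was -0.283 for Plin2 and Plin4. Among all 72631378 pairs of the 12053 genes kept, 6.1% had an r of at least 0.459, the lowest of the 8, against 28.6% of the 28 pairs, and the median r was -0.002. These shares were set side by side without a test.

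Angptl4, Pdk4, Plin4 and Ucp3 formed 6 of the 8 pairs. Plin4 and Ucp3 had r = 0.737 and rho = 0.723 (permutation p = 1e-05 for both, the smallest these permutations can give, adjusted p = 0.00028 for both). Angptl4 and Pdk4 had r = 0.736 and rho = 0.689 (permutation p = 4e-05 and 1e-04, adjusted p = 0.00056 and 0.0014). The r was 0.643 for Angptl4 and Ucp3, 0.640 for Pdk4 and Ucp3, 0.584 for Plin4 and Pdk4, and 0.459 for Angptl4 and Plin4. The first 3 of these had rho of 0.582, 0.654 and 0.549, with adjusted p of 0.00201, 0.00126 and 0.00126 for r and of 0.00628, 0.00261 and 0.00527 for rho (permutation test). The last pair passed by r (adjusted p = 0.0417, permutation test) but not by rho of 0.416 (adjusted p = 0.0671, permutation test). The 2 mice farthest from the median in 1 gene of each pair (Angptl4, Plin4 or Pdk4) were also left out, while mice far out in the other gene stayed in. Then r was 0.666 for Plin4 and Ucp3, 0.718 for Angptl4 and Pdk4, and 0.412 to 0.603 for the other 4 pairs. Without the HFD-50% mice the 6 values were 0.502 to 0.793. Within the low and the high rRNA-linked library sets r was 0.740 and 0.737 for Angptl4 and Pdk4 and 0.697 and 0.839 for Plin4 and Ucp3, while Angptl4 and Plin4 had 0.261 and 0.782. The sets gave 0.597 and 0.751 for Angptl4 and Ucp3, 0.720 and 0.454 for Pdk4 and Ucp3, and 0.647 and 0.516 for Plin4 and Pdk4.

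The remaining pairs were Plin5 with Plin3 (r = 0.646, rho = 0.590, permutation p = 0.00024, adjusted p = 0.00134 for r and 0.00527 for rho) and Plin5 with Plin2 (r = 0.570, rho = 0.562, permutation p = 0.00079, adjusted p = 0.00316 for r and 0.00527 for rho). Without the 2 mice farthest from the median in Plin3 and in Plin2, respectively, r was 0.631 and 0.510. In the low-share libraries it was 0.725 and 0.609, and in the high-share ones 0.461 and 0.484. Without the mice numbered 1, which were highest for Plin3 in 5 of 6 groups, the pairs had r of 0.459 and 0.450. Plin4 and Plin5, the neighbours on chromosome 17, had r = 0.056, and Ucp2 and Ucp3 had r = -0.119. Ucp2 had r of -0.516 with Angptl4 and -0.439 with Pdk4 in the 26 low-share libraries and 0.725 and 0.775 in the 10 high-share ones, and the difference was not tested.

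**Figure D4:**
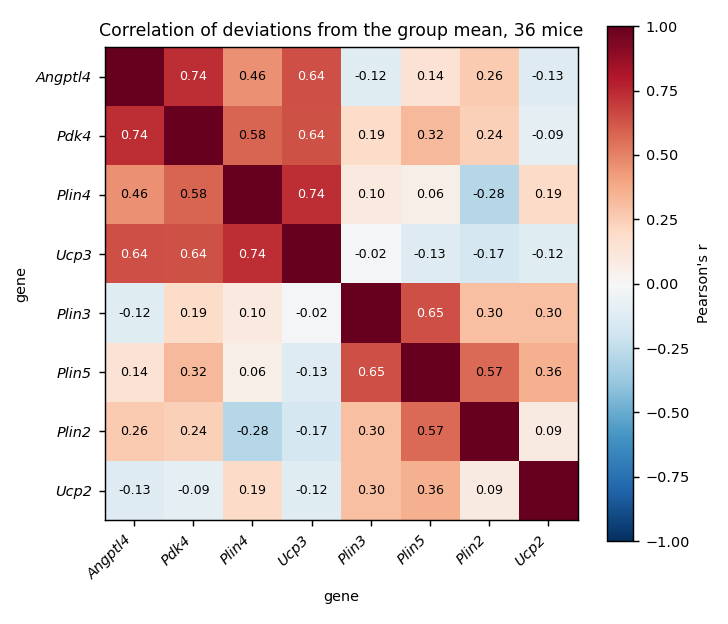
Pearson's r between the genes (both axes), from the deviations of log2(CPM + 1) from the group mean in 36 mice, on a colour scale from -1 to 1. Angptl4, Pdk4, Plin4 and Ucp3 form a block with r from 0.459 to 0.737, and Plin5 goes with Plin3 (0.646) and Plin2 (0.570).

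**Figure D5:**
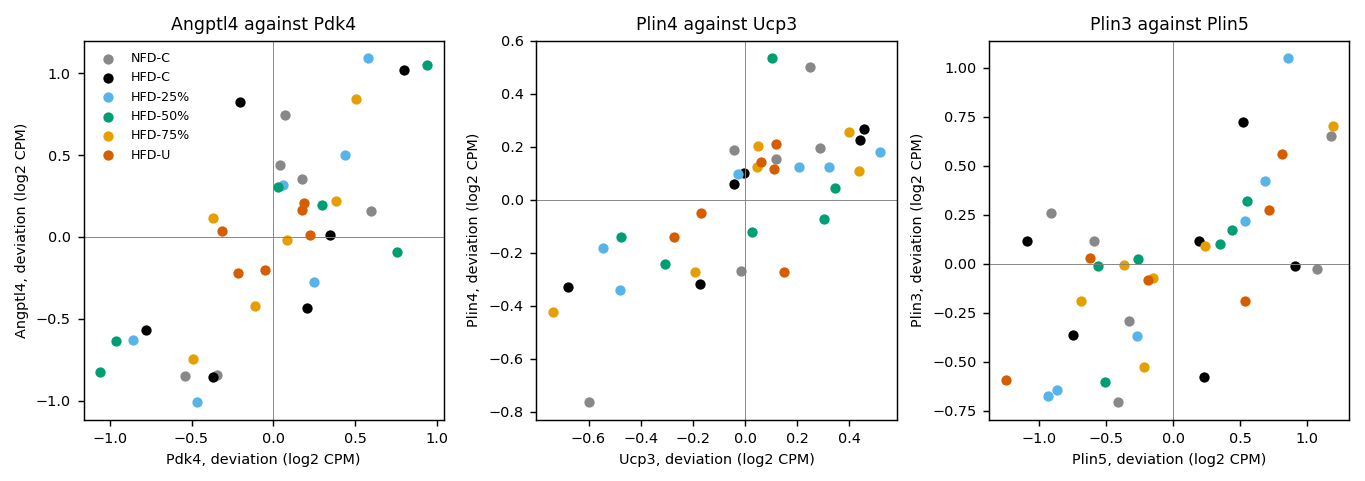
Deviations from the group mean (log2 scale of CPM + 1) of Angptl4 against Pdk4, Plin4 against Ucp3 and Plin3 against Plin5, with 1 point per mouse coloured by group. Each pair runs from low to high in mice of several groups (r = 0.736, 0.737 and 0.646).

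Over all 36 mice and 12053 genes, the 3 genes most alike to each member were taken by Pearson's r of log2(CPM + 1), which here includes differences between groups. For Angptl4 they were Pnpla3 (r = 0.808), a lipid droplet acyltransferase and lipase relative, Tle1 (0.781), a corepressor, and Pdk4 (0.777). For Pdk4 they were Kdm4a (0.835), a histone demethylase, Zbtb16 (0.824), a zinc finger factor known to respond to glucocorticoids, and Rc3h1 (0.823), an RNA-binding ubiquitin ligase. Plin4 was most alike to Doc2b (0.895), a calcium sensor of vesicle fusion, Fkbp5 (0.846), a cochaperone of the glucocorticoid receptor, and Cblb (0.804), a ubiquitin ligase. Ucp3 was most alike to Fkbp5 (0.790), Plin4 (0.787) and Nfil3 (0.781), a repressor of clock target genes.

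For Plin5 the 3 genes were Dgat2 (0.953), which makes triglyceride, Acadvl (0.948), an enzyme of fatty acid oxidation, and Mb (0.947), the oxygen store myoglobin, which was only the 22nd by Spearman's rho. Mb itself ranged from 405 to 7537 CPM over the mice, and its part in the Plin5 values was not tested. Plin3 was most alike to H19 (0.825), an imprinted noncoding RNA, to Slco3a1 (0.791), an organic anion transporter, and to an unnamed transcript (0.780). Ucp2 was most alike to Jcad (0.872), a junction protein of endothelium, Slc9a3r2 (0.859) and Sptan1 (0.845), a spectrin. For Plin2 they were an unnamed transcript (0.756), Trim72 (0.752), a factor of membrane repair, and Grb14 (0.751), an adaptor of the insulin receptor.

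Of 38 other genes known as PPAR targets, 34 were tested in the comparisons without HFD-50%, and no gene of this list or of the other lists passed the adjusted p. List counts by unadjusted p stand beside 4.12% of all genes in HFD-C against NFD-C and 5.1 to 6.98% in the comparisons of HFD-25%, HFD-75% and HFD-U with HFD-C or HFD-U. All lists were chosen with earlier results of the same mice known, so their counts are not independent support. In HFD-C against NFD-C, 7 of the 34 targets were higher and 1 lower by unadjusted p (at most 0.05). Their median log2 fold change was 0.30, while that of the 8 members was -0.23. The most abundant of them, Fabp3, a fatty acid binding protein of muscle, had a log2 fold change of 1.22 (SE 0.411, edgeR adjusted p = 0.9996). Ech1, an enzyme of fatty acid oxidation, had 0.62 (SE 0.217), and Fabp4, of fat cells and endothelium, 0.16. Mb averaged 1414 ± 1022 CPM in NFD-C and 2770 ± 1495 CPM in HFD-C (SD, n = 6), while 4 of 11 fibre markers tested were higher in HFD-C. The part of fibre make-up in these values was not tested. In HFD-25%, HFD-75% and HFD-U against HFD-C, 1, 3 and 0 of the PPAR targets were higher and 0, 0 and 1 lower, with medians of 0.18, 0.21 and 0.08. Against HFD-U, 0 in HFD-25% and 1 in HFD-75% were higher and 0 lower.

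Of the 17 PPAR receptors, partners and coregulators, 0, 2 and 1 were higher and 2, 2 and 2 lower by unadjusted p (at most 0.05) in HFD-25%, HFD-75% and HFD-U against HFD-C. Against HFD-U, 0 in HFD-25% and 2 in HFD-75% were higher and 0 lower. Lpin1, a coactivator and phosphatidate phosphatase, had a log2 fold change of 0.59 (SE 0.156) in HFD-75% against HFD-C and of -0.41 (SE 0.151) in HFD-C against NFD-C. Rxrg and Rxra, partners of PPARs, were at 0.04 and 0.04 in HFD-75% against HFD-C. Among 14 relatives of the members, Angptl2, a secreted protein of the same family as Angptl4, was lower in HFD-75% than in HFD-C by a log2 fold change of -0.59 (SE 0.118, edgeR adjusted p = 0.239) and was the only one of 10 tested at that limit. In each of the other comparisons of these running groups with HFD-C or HFD-U 0 relatives were higher. In each of them 1 was lower, except HFD-U against HFD-C, with 0. In HFD-C against NFD-C, 1 relative was higher, Angptl2 at 0.34 (SE 0.135), and 0 were lower. In HFD-75% against HFD-C, Pdk2 and Pdk1 were at 0.06 and 0.08, beside 0.76 for Pdk4.

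Of the 18 genes of lipolysis, droplets and lipoprotein lipase, 2, 3 and 1 were higher and 0, 0 and 1 lower by unadjusted p (at most 0.05) in HFD-25%, HFD-75% and HFD-U against HFD-C. Against HFD-U, 3 in HFD-25% and 2 in HFD-75% were higher and 0 lower. In HFD-75% against HFD-C, Pnpla2, the lipase ATGL that starts the breakdown of stored fat, had a log2 fold change of 0.47 (SE 0.161), Lpl, the target of the Angptl4 protein, 0.17, and Fitm1, which helps to form droplets, -0.01. Of the 10 genes of the pyruvate dehydrogenase complex, its phosphatases and the pyruvate carrier, 0, 1 and 2 were higher in HFD-25%, HFD-75% and HFD-U against HFD-C and 0 lower. Against HFD-U the number was 0 in HFD-25%, and 1 was lower in HFD-75%. Mpc2, Pdhb and Pdha1 had -0.02, 0.09 and 0.30 in HFD-75% against HFD-C.

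The glucocorticoid and FOXO lists were likewise chosen with earlier results of these mice known, so their counts are a description. Of 16 glucocorticoid-induced genes, 2, 5 and 0 were higher and 0, 1 and 0 lower by unadjusted p (at most 0.05) in HFD-25%, HFD-75% and HFD-U against HFD-C, with median log2 fold changes of -0.02, 0.25 and 0.09. Against HFD-U, 2 were higher and 0 lower in HFD-25%, and 3 higher and 1 lower in HFD-75%. Glul, glutamine synthetase, had log2 fold changes of 0.76 (SE 0.204) and 0.50 (SE 0.183) in HFD-75% against HFD-C and HFD-U, Tsc22d3 0.09 and 0.36, and Sgk1 -0.02 and -0.24. Of 13 FOXO factors and targets, 2, 5 and 1 were higher in HFD-25%, HFD-75% and HFD-U against HFD-C, and 0 and 3 in HFD-25% and HFD-75% against HFD-U, with 0 lower in these 5 comparisons. In HFD-75%, Trim63 and Fbxo32, ubiquitin ligases of muscle atrophy, had 1.07 (SE 0.334) and 0.70 (SE 0.255) against HFD-C and 1.14 (SE 0.350) and 0.73 (SE 0.305) against HFD-U, and Bnip3 0.14 and 0.07. Of the adipocyte markers tested against HFD-C, 1 of 6 was lower in HFD-25% (median log2 fold change -0.83), and 0 of 7 in HFD-75% (-1.03) by unadjusted p (at most 0.05). For HFD-U it was 3 of 5 (-1.84). The minimum count applied to the mean of both groups, so a marker high in HFD-C alone could enter these tests. Against HFD-U, 3 adipocyte markers were tested in HFD-25% and 4 in HFD-75%. Adipoq had 0.414, 1.36 and 19.4 CPM (lowest, median and highest) in HFD-C and at most 1.74 CPM in HFD-U. The adipocyte counts and medians are therefore a description only. The summed level of the 10 adipocyte markers overlapped between all groups, and none of them was at 0 in every mouse of a group. That sum includes Fabp4, also of endothelium, with 248 FPKM on average, whereas Adipoq, Lep and Plin1 averaged 2.35, 1.55 and 1.29 CPM. It is thus a weak measure of fat cells, and their part in the values of the members was not tested.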

How the data were processed

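Gastrocnemius RNA from 36 mice (6 per group) was sequenced from poly(A)-selected libraries. The deposited values were raw counts per gene that the authors' sequencing provider made with HISAT2 2.0.5 and featureCounts 1.5.0-p3, with a gene length beside them. The labels name mm10, whereas the coordinates in the file are of GRCm39. The 8 members and the gene lists were chosen with earlier results of these data known.

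Groups came from the labels. Each comparison was a fit of its 12 libraries in edgeR 4.0.16 (R 4.3.3; quasi-likelihood test, TMM, mean count of at least 25) with Benjamini-Hochberg adjustment over all genes, and the scripts were tested on simulated data. CPM used TMM library sizes and FPKM the deposited gene length. Correlations used 100000 permutations within groups (Python 3.11.15, scipy 1.17.1) and were planned after the data were seen. The named list genes were the 3 of highest FPKM in each list. Alternatives were DESeq2 1.42.0, RLE size factors, no minimum count, 1 fit over 36 libraries, a replicate block, a library set term, library sets alone, and leaving out mice. Nothing says that replicate numbers mark a shared cage or day. Same-numbered mice deviated together in all 6 pairs of HFD-U against HFD-C (r of 0.125 to 0.51) and in 1 to 5 of 6 pairs elsewhere. P-values measure the spread between mice.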

Additional observations from a re-analysis of the deposited data

Results flagged for a closer look

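In 3 of the 48 sets of 6 mice (8 genes in 6 groups), 1 mouse stood far from the others by Dixon's ratio of the gap to the range, past its 95% limit for 6 values. Chance alone gives about 1 such set in 20. Plin4 in HFD-50% replicate 4 was at 1242 CPM, with the next mouse at 883 CPM and a ratio of 0.691. Plin5 in HFD-75% replicate 1 was at 84.9 CPM, next to 43.4 CPM, with a ratio of 0.664. Ucp2 in HFD-C replicate 4 was at 21.6 CPM, next to 15.2 CPM, with a ratio of 0.718.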

How the results depend on the processing

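Of 400 log2 fold changes of single genes in the tested comparisons under other settings, 382 kept their direction and their side of the adjusted p limit. The comparisons with HFD-50% have no test, and their 208 values moved by less than the SD within groups. Of these, 3 changed sign, namely Pdk4 against HFD-75% with the replicate block (-0.037) and without the mice numbered 1 (-0.016), and Plin5 against HFD-75% without a minimum count (-0.0047). Leaving out 1 mouse changed the sign of 25 of 384, all in Pdk4, Plin3, Plin5, Ucp2 or Ucp3 and none against HFD-C. Members past the adjusted p numbered 1 with DESeq2 in HFD-75% against HFD-C, and in HFD-75% against HFD-U 2 with DESeq2 and 1 without a minimum count. Leaving out 1 mouse gave 0 to 1 there and 0 in the other 6 comparisons. At the unadjusted limit, the larger changes in number were these. HFD-C against NFD-C had 2 members without a minimum count, in 1 fit over 36 libraries and in high-share libraries alone. HFD-25% against HFD-C had 1 in low-share libraries alone, and HFD-75% against HFD-C 3 there and with the library set term. HFD-25% against HFD-U had 1 without the mice numbered 1. HFD-25% against HFD-75% had 1 with DESeq2, without a minimum count and with the replicate block. Smaller changes are not all listed. Among them, Angptl4 in HFD-25% and Plin5 in HFD-75% against HFD-C were gained without a minimum count. Plin3 in HFD-75% against HFD-C was lost in 1 fit over 36 libraries, and Ucp2 in HFD-25% against HFD-U was gained with DESeq2. Leaving out 1 mouse gave 1 to 3 members in HFD-C against NFD-C. Against HFD-C it gave 1 to 5 in HFD-25%, 4 to 5 in HFD-75% and 1 to 1 in HFD-U. It gave 2 to 4 and 4 to 4 in HFD-25% and HFD-75% against HFD-U, and 0 to 2 between them. The causes were not tested.

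In the tested comparisons, these values changed sign. Ucp2 in HFD-C against NFD-C was 0.0052 in high-share libraries alone and 0.020 without the mice numbered 1 (-0.20 to 0.021 without 1 mouse). In HFD-75% against HFD-C it was 0.071 with the term and 0.069 in low-share libraries (-0.18 to 0.051), and against HFD-U it ranged from -0.031 to 0.20. Pdk4 in HFD-U against HFD-C was 0.0039 without a minimum count, 0.062 with the replicate block, 0.36 with the term, 0.36 in low-share libraries and 0.054 without the mice numbered 1 (-0.13 to 0.19). In HFD-25% against HFD-U, Plin3 was -0.041 with the block and -0.11 without the mice numbered 1 (-0.24 to 0.18), and Plin5 ranged from -0.17 to 0.19. In HFD-75% against HFD-U, Plin5 was -0.093 without the mice numbered 1 (-0.27 to 0.27), Plin2 ranged from -0.12 to 0.067 and Plin3 from -0.32 to 0.0033. In HFD-25% against HFD-75%, Plin5 was 0.11 and Plin2 0.020 without the mice numbered 1, with ranges of -0.26 to 0.29 and -0.15 to 0.0025, and Plin3 ranged from -0.11 to 0.37.

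The replicate block left 0 members past the adjusted p in every tested comparison. At the unadjusted limit it added Plin5 in HFD-25% against HFD-C (0.52, 4 members in place of 3), Ucp2 in HFD-25% against HFD-U (0.43, 4 in place of 3) and Pdk4 in HFD-25% against HFD-75% (-0.54), and changed no other count of members. Of the 24 genes most alike to a member, 15 stayed among the 3 by Spearman's rho and 14 by deviations from the group mean, and 7 of 8 members, all but Pdk4, lost at least 1 under either. A library set term could not be fitted where HFD-C was not compared.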
